A study of Mus musculus with 15 samples.

Results

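Kupffer cells are the resident macrophages of the liver and can be carried into hepatocyte preparations. Their content was followed here through 10 marker genes: Cd68, Adgre1, Clec4f, Csf1r, Marco, Vsig4, Cd5l, Timd4, Lyz2 and Ptprc. They were taken by name from a table of 38087 gene rows. Of these, 9 were found by their symbol and Adgre1 by its gene identifier, since the table lists it under its older symbol Emr1.

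Hepatocytes from CD-1 mice had been cryopreserved and were seeded on collagen, 200000 to a well, under a Geltrex overlay, in medium with dexamethasone at 0.1 µM. After 24 h in 25% mouse serum, growth hormone at 8 ng per ml or its PBS vehicle was added for 2 h. Male cells in serum of conventionally raised male mice gave 3 libraries, and female cells in that serum gave 3. Female cells gave 2 libraries in serum of conventionally raised females, 2 in serum of germ-free females, which carry no microbiota, and 3 in germ-free female serum with growth hormone. All groups other than the last received vehicle. Each sex was a donor stock of its own, so donor and sex cannot be told apart, and the labels give neither the ages of the mice nor whether replicates were separate cultures. The p-values therefore measure the spread between these libraries, which may be technical.

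The 13 libraries held 34097400 to 48742274 counts each. Xist, the RNA that coats the silenced X chromosome, had 0 to 3 counts in the male libraries. It reached 23315 counts in replicate 2 of conventional female serum and 32396 in growth hormone replicate 1, against 9654 to 18293 in the other female libraries, and results were also computed without those 2. The 12 hepatocyte genes used to check the label had a median of 292 RPKM, led by albumin (Alb) at 3890 RPKM. Not all were high. In female cells the urea cycle gene Cps1 had 2.09 to 3.24 RPKM, Tat 1.31 to 4.92, Asgr1 6.06 to 10.4 and Fabp1 11.9 to 15.2. In male cells Cps1 had 10.6 to 12.2 RPKM, Tat 13.2 to 15.2, Asgr1 25.8 to 28.4 and Fabp1 102 to 112, all below the list median. CPM are counts per 1000000 of the TMM-scaled library size, used to compare libraries, and RPKM are CPM per kilobase of exon, used to compare genes.

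Kupffer cells line the liver sinusoids, where they take up bacteria, complement-coated particles and worn red cells from the portal blood. In the mouse they are largely seeded by embryonic precursors and depend on signalling through the receptor coded by Csf1r, whose ligands are CSF1 and interleukin 34. Clec4f and Timd4 mark resident Kupffer cells, Vsig4 and Marco code for receptors that bind complement fragments and microbes, and Cd5l codes for a protein that macrophages secrete. Cd68, Adgre1 and Lyz2 mark macrophages at large, while Ptprc codes for CD45, found on nearly all white blood cells. The transcription factor PU.1 drives many macrophage promoters, and its sites contain the letters GAGGAA.

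The 3 stretches below show the 250 bases before the RefSeq start of the most abundant marker, of one Kupffer cell receptor gene and of the scarcest marker, in build GRCm38.p6. Cd68 lies on the minus strand (chr11:69666171-69666420), Vsig4 on the minus strand (chrX:96293439-96293688) and Timd4 on the plus strand (chr11:46810549-46810798). Each is written 5′ to 3′ along its gene, and capitals mark GAGGAA read on that strand.
Cd68: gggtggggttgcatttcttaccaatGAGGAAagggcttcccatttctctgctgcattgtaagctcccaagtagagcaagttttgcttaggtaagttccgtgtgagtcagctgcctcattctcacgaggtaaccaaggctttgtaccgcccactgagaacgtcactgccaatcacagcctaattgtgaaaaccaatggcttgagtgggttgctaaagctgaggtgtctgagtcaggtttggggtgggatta
Vsig4: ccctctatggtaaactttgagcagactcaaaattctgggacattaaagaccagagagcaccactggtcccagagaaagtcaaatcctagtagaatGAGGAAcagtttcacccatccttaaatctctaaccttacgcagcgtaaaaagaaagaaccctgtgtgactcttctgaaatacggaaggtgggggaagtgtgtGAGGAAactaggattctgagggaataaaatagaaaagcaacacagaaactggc
Timd4: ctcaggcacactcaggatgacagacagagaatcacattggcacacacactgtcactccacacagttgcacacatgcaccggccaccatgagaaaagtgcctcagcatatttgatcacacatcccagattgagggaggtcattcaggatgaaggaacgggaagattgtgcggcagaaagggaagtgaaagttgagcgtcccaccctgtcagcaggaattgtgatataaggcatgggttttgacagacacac

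GAGGAA was searched on both strands in such windows, which RefSeq gave for 8 of the markers that could be used. It was present for 5 of the 8 (Cd68, Vsig4, Marco, Cd5l and Ptprc), and in 23.3% of all 32851 windows. The longer form GAGGAAGT, which contains it, was in none of the 8 and in 2.44% of all windows. TGTGGT, the core bound by Runx factors, was in 1 of the 8 (Lyz2) and in 14.0% of all. TATAAA was in 1 (Ptprc) and in 12.4%. The Cd68 window held 4 CpG and the Vsig4 window 3, against a median of 6 over all windows. A match describes letters and is not a binding site.

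Cd68 stood far above the other markers in all 13 libraries. It codes for a heavily glycosylated protein of lysosomes and endosomes, is used to stain macrophages and has also been found in other cell types. Its mean level was 88.1 RPKM, and 97.9% of the table's rows had a lower mean level. Per length that was 76.6 times the level of Clec4f, 88.3 times that of Lyz2, 194 times that of Vsig4, 591 times that of Adgre1 and 6990 times that of Timd4. Cd68 alone gave 89.1 to 96.3% of the counts of the 10 genes in a library, so a sum over the markers is close to a measure of Cd68.

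**Figure D1:**
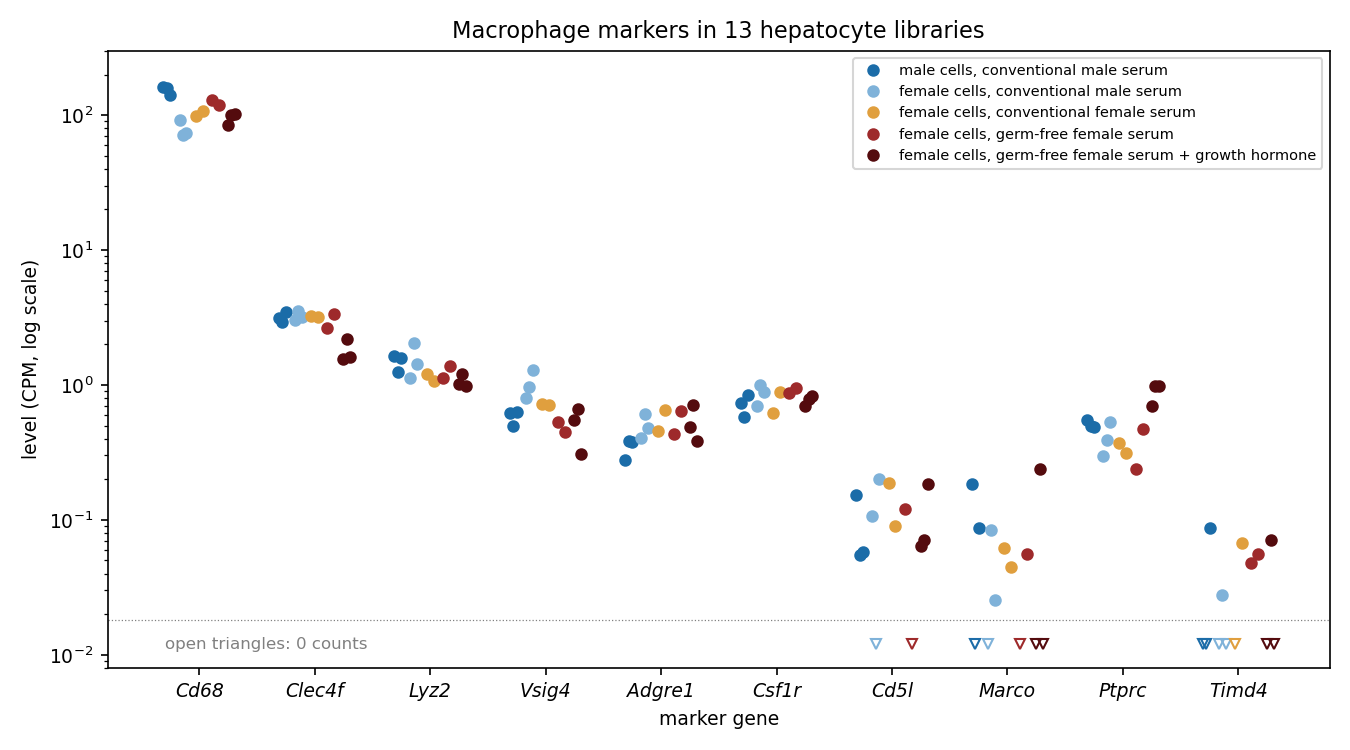
Level of each marker (x axis) in each of the 13 libraries (y axis, CPM on a log scale), one point per library coloured by group, with libraries at 0 counts drawn as open triangles under the dotted line. Cd68 lies between 70.9 and 161 CPM in every library, and Marco, Cd5l and Timd4 are at 0 counts in 5, 2 and 7 libraries.

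Cd68 (chr11:69664213-69666153, mm10) had 161, 159 and 142 CPM in the male libraries and 92.2, 70.9 and 73.9 CPM in female cells with the same serum. In female cells it had 98.4 and 107 CPM with conventional female serum, 129 and 119 CPM with germ-free serum, and 84.2, 101 and 102 CPM with germ-free serum and growth hormone. The male libraries were the highest, the germ-free libraries came next apart from those above and below, and the remaining 3 groups followed in an order whose neighbours overlapped. Its coefficient of variation over the 13 libraries was 26.8%, against 1.51% from counting alone.

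Clec4f (chr6:83644542-83656187), the C-type lectin that in mouse liver marks Kupffer cells, was next, at a mean of 1.15 RPKM and 74 to 156 counts. It had 3.13, 2.91 and 3.46 CPM in male cells, 3.03, 3.53 and 3.21 CPM in female cells with conventional male serum and 3.22 and 3.19 CPM with conventional female serum. With germ-free serum it had 2.64 and 3.37 CPM, and with growth hormone 1.57, 2.19 and 1.61 CPM. The first 4 groups overlapped their neighbours in the order of levels, and the growth hormone libraries lay below all others. Its coefficient of variation was 23.2%, against 9.4% from counting.

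Lyz2 (chr10:117277331-117282321), which codes for the lysozyme of macrophages and other myeloid cells, had a mean of 0.998 RPKM. Its levels were 1.63, 1.24 and 1.59 CPM in male cells, 1.12, 2.06 and 1.44 CPM in female cells with conventional male serum, 1.2 and 1.07 CPM with conventional female serum, 1.13 and 1.39 CPM with germ-free serum, and 1.02, 1.21 and 0.978 CPM with growth hormone. All neighbouring groups overlapped. Lyz1, a near-identical copy with which reads could be exchanged, had 0 to 4 counts in a library, against 42 to 74 for Lyz2.

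Vsig4 (chrX:96247203-96293438), the complement receptor of the immunoglobulin family, had a mean of 0.453 RPKM and 15 to 51 counts. It had 0.615, 0.494 and 0.634 CPM in male cells and 0.803, 0.973 and 1.29 CPM in female cells with conventional male serum. It had 0.723 and 0.715 CPM with conventional female serum, 0.529 and 0.446 CPM with germ-free serum, and 0.55, 0.665 and 0.306 CPM with growth hormone. The female cells in conventional male serum stood apart above, the female serum group came next without overlap, and the other 3 groups overlapped.

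Adgre1 (chr17:57358691-57483527) codes for an adhesion receptor used as the standard surface marker of mouse macrophages. It was sparse, at 9 to 30 counts. Male cells had 0.277, 0.385 and 0.375 CPM and lay below the 10 female libraries. These had 0.402, 0.612 and 0.481 CPM with conventional male serum, 0.454 and 0.648 with conventional female serum, 0.433 and 0.641 with germ-free serum, and 0.487, 0.713 and 0.387 with growth hormone. The female groups overlapped one another, and the coefficient of variation of 27.0% was close to the 22.5% that counting alone gives.

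Csf1r had 0.738, 0.577 and 0.836 CPM in male cells, 0.696, 1 and 0.885 CPM in female cells with conventional male serum and 0.62 and 0.893 CPM with conventional female serum. It had 0.865 and 0.948 CPM with germ-free serum and 0.698, 0.784 and 0.835 CPM with growth hormone. All neighbouring groups overlapped, and its variation of 15.8% was no more than the 17.6% of counting. Part of these counts may belong to Hmgxb3 on the opposite strand, which shares 873 exon bases (15.1% of the exon length of Csf1r) and had 31505 counts over the libraries against 418, and how the counting treated strand is not stated in the sources used.

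Ptprc (chr1:138062861-138175708), the pan-leukocyte phosphatase gene, had a mean of 0.0286 RPKM over an exon length that sums all its exon forms. Its levels were 0.553, 0.494 and 0.49 CPM in male cells, 0.295, 0.389 and 0.531 CPM in female cells with conventional male serum, 0.372 and 0.313 CPM with conventional female serum and 0.24 and 0.474 CPM with germ-free serum. With growth hormone it had 0.698, 0.974 and 0.978 CPM, from 33, 41 and 48 counts, above all other libraries.

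The remaining 3 markers were at the edge of detection and had too few counts to be tested. Marco (chr1:120474538-120505024), the scavenger receptor gene, had 30 counts over the 13 libraries and 0 in 5 of them, with 10 counts in replicate 2 of the growth hormone group and 0 in its replicates 1 and 3. Cd5l (chr3:87357881-87371073) had 54 counts, from 0 to 9 in a library. Timd4 (chr11:46810800-46844332), which codes for a receptor for phosphatidylserine on dying cells, had 14 counts in all, 0 in 7 libraries and at most 3. A count of 0 allows up to 3 counts, or 0.0611 to 0.0922 CPM depending on the library. Summed over a group, Timd4 had 1 count in female cells with conventional male serum (exact 95% Poisson interval 0.0253 to 5.57 counts) and 4 with germ-free serum (1.09 to 10.2), so no order of the groups was detectable at this depth. Such intervals cover counting error only.

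The sum of the 9 markers without Cd68 was 7.01 ± 0.766 CPM (SD, n = 3) in male cells and 7.73 ± 1.15 (SD, n = 3) in female cells with conventional male serum. With conventional female serum it was 6.94 ± 0.134 (SD, n = 2), with germ-free serum 6.7 ± 0.976 (SD, n = 2) and with growth hormone 5.76 ± 1 (SD, n = 3). The range of each group overlapped that of conventional female serum, 6.84 to 7.03 CPM, and no test was made of these sums. Clec4f was the largest part of the sum in every library. In bulk RNA, fewer cells of a type and less RNA per cell cannot be told apart.

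Over the 10 female libraries, pairs of markers had correlations of both signs. Pearson's r of log2 CPM, given as a description without a test, was -0.67 between Cd68 and Vsig4, -0.53 between Cd68 and Lyz2 and -0.07 between Cd68 and Clec4f. Among the scarce markers it was 0.64 between Clec4f and Lyz2, 0.61 between Clec4f and Vsig4, 0.57 between Vsig4 and Lyz2 and -0.70 between Clec4f and Ptprc. Group means were not removed, so differences between the female groups enter each r. Clec4f, for one, was lowest and Ptprc highest with growth hormone. Each pair also shares libraries and their depth. The genes whose log2 CPM was most like the mean of the 7 tested markers over the same 10 libraries were Minpp1 (r = 0.89), Mnd1 (0.86), Gm16540 (0.86), Psmg3 (0.85) and Npr1 (0.84). Over all 13 libraries they were Gm17146 (0.81), Gm9761 (0.79), Tsen34 (0.79), Trappc3 (0.75) and U1 (0.75), and no gene was in both sets. Both sets top a ranking of all tested genes with a mean count of at least 10, where some high r arises without any link.

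**Figure D2:**
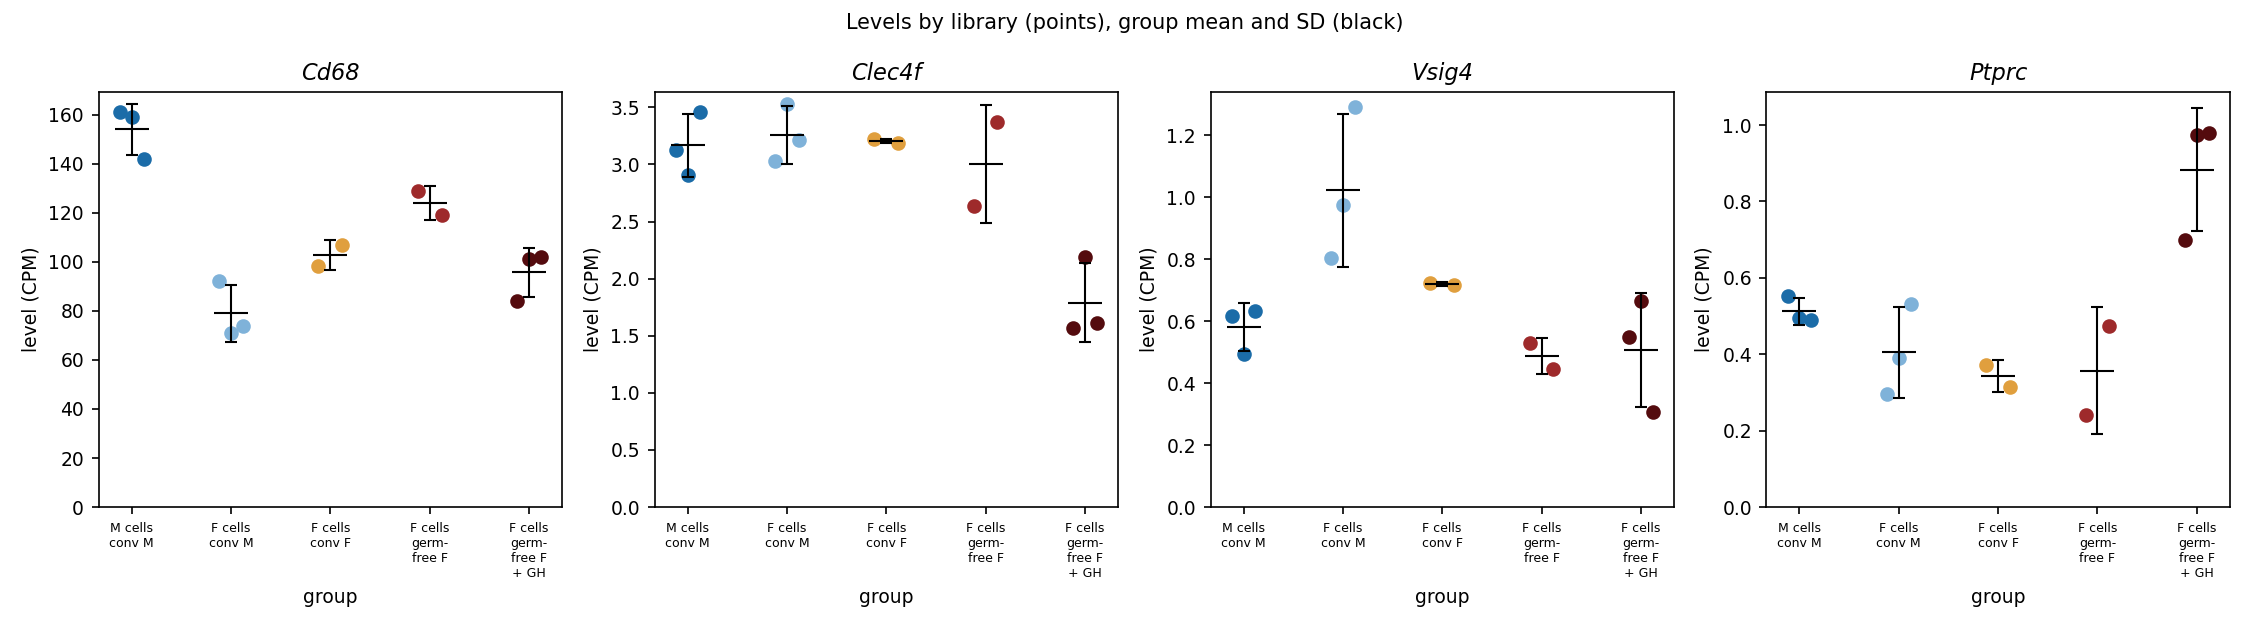
Level (y axis, CPM from 0) of Cd68, Clec4f, Vsig4 and Ptprc by group (x axis; M, male; F, female; conv, serum of conventionally raised mice; GH, growth hormone), with one point per library and the group mean and SD in black. Cd68 is highest in male cells (154 ± 10.7), Clec4f lowest (1.79 ± 0.346) and Ptprc highest (0.883 ± 0.16) with growth hormone, and Vsig4 highest (1.02 ± 0.247) in female cells with conventional male serum.

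Between male and female cells in the same conventional male serum, Cd68 was the 1 marker that passed the test. Cd68 rose 1.95-fold in male cells, by 0.96 ± 0.097 on the log2 scale (SE; 95% interval 0.76 to 1.17; edgeR quasi-likelihood test, two-sided, Benjamini-Hochberg adjusted p = 1.12e-06), and it was above in 3 of 3 male libraries. That was 1 of the 7 markers tested, in a comparison where 36.6% of all 17405 genes tested passed the threshold of 0.05 on the adjusted p (17.6% rose and 18.9% fell). Rises were 48.2% of all calls with TMM and 33.6% with library size only, which moved the median of all genes from -0.02 to -0.11 and left Cd68 called. The 4 comparisons share libraries: female cells in conventional male serum enter 2 of them, as do conventional female serum and germ-free serum. The median log2 fold change of the 7 was -0.06 and that of all genes -0.02.

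The other 6 markers did not pass. Clec4f had a log2 fold change of -0.04 with a 95% interval of -0.39 to 0.31, whose upper end lies below the interval of Cd68. Lyz2 had -0.06 (-0.57 to 0.46), Csf1r -0.27 (-0.87 to 0.34), Adgre1 -0.52 (-1.33 to 0.29) and Ptprc 0.33 (-0.44 to 1.10). Vsig4 had -0.82 (-1.49 to -0.14) and an adjusted p of 0.055 in the edgeR fit. Without replicate 1 of the female cells it was -0.96 with an adjusted p of 0.0418, it was also called with library size only (0.0328) and with a minimum count of 30 (0.0468), and over all 12 alternatives the adjusted p ran from 0.0328 to 0.197. The male libraries lay wholly above the female ones for Cd68 and wholly below for Adgre1 and Vsig4, 3 of 7 markers, against 47.6% of all genes without overlap. The difference between Cd68 and the other markers was not itself tested.

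**Figure D3:**
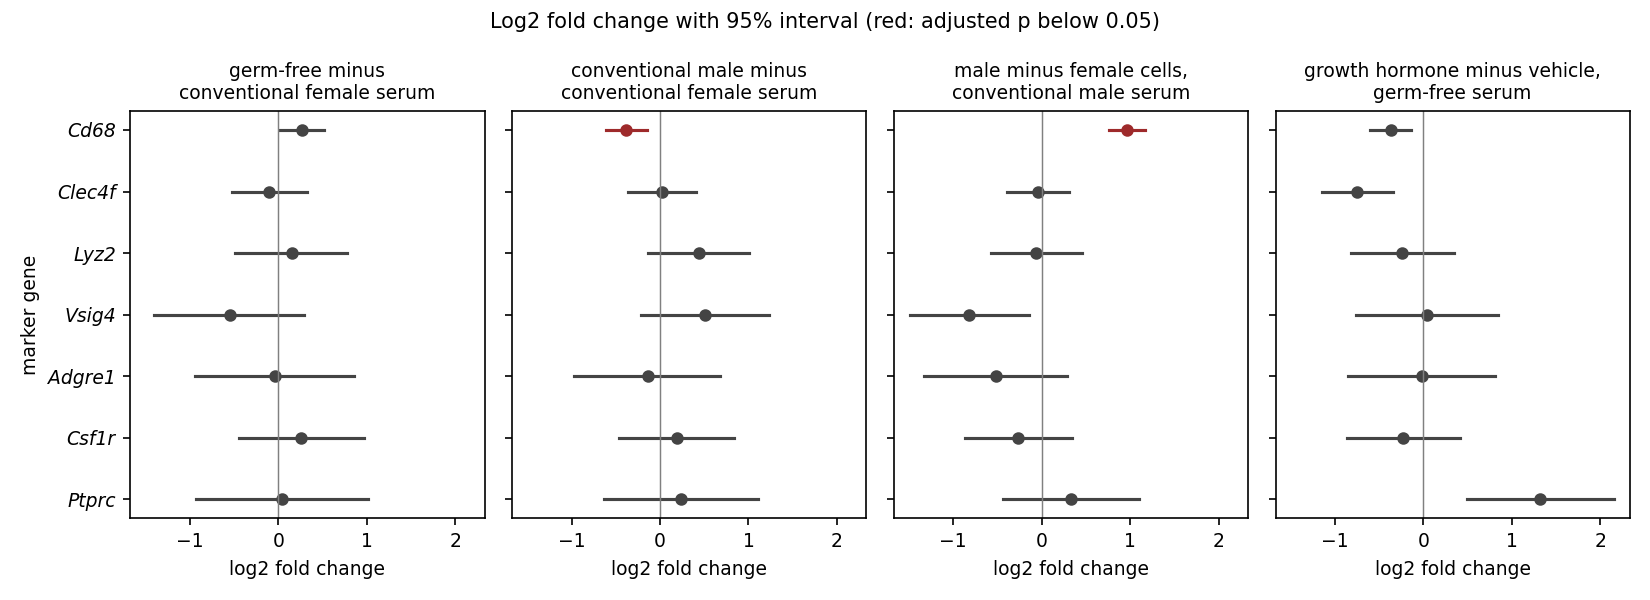
Log2 fold change (x axis) of the 7 tested markers (y axis) with 95% intervals in the 4 comparisons, one panel each, in red where the adjusted p was below 0.05. Cd68 is the one marker in red, at 0.96 for male against female cells and -0.38 for conventional male against conventional female serum.

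Genes of other lists were also called between the 2 donor stocks, where 36.6% of all genes tested passed (17.6% rose and 18.9% fell). A count near those shares tells nothing about a list. Of 12 further genes linked to Kupffer cells 8 could be tested, and 3 rose in male cells: Id3 (log2 fold change 1.35 ± 0.138), a transcriptional regulator needed by Kupffer cells, Il18bp (1.32 ± 0.0971), which codes for a binder of interleukin 18, and Slc40a1 (0.64 ± 0.0852), the iron exporter gene. Among genes of that list that mark Kupffer cells more narrowly, Folr2 had 1 to 7 counts in a library, Cd163 2 to 14, and Kcna2 and Spic 0 to 4, with both at 0 in 8 libraries. Clec1b had 18 to 46 counts and Fcna 10 to 29, so both were detected in every library. Hepatocytes also express several of the others, such as Hmox1, Slc40a1 and Id3. Of the 8 genes tested, 7 had a log2 fold change above 0 and 1 below, with a median of 0.60. Fcna had 0.615, 0.604 and 0.634 CPM in male and 0.402, 0.473 and 0.354 CPM in female cells. Mrc1 had 2.15, 2.28 and 2.42 CPM against 1.45, 1.59 and 1.97 CPM. Both lay above without overlap, as 47.6% of all genes lay apart in either direction, but neither passed. Clec1b overlapped.

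Of 23 further macrophage genes 20 could be tested, and 2 rose in male cells, with a median of -0.14 for the list. Of all genes tested, 17.6% rose. Mpeg1, which codes for a pore-forming protein of macrophages, had 25.8, 24 and 26.2 CPM in male and 7.26, 5.92 and 8.05 CPM in female cells (1.84 ± 0.145, adjusted p = 3.44e-08 in edgeR). Gpnmb, a lysosomal membrane glycoprotein gene, had 40.1, 37.8 and 40.8 CPM against 9.83, 7.59 and 8.25 CPM (2.21 ± 0.262, adjusted p = 1.14e-04 in edgeR). Their male libraries lay above the female ones, as those of Cd68 did, and the summed level of the list was 78.4 to 84.4 CPM in male and 33.8 to 37.1 CPM in female cells. Without these 2 genes, a sum chosen after the values were seen, the other 21 had 16.6 to 18.2 CPM in male and 16.7 to 22.5 CPM in female cells, which overlapped. Since the 2 genes left out are those called here, that overlap is not a separate result. Of the 20 genes tested, 9 had a log2 fold change above 0 and 11 below. C1qa, a complement gene of tissue macrophages, had 36 to 104 counts in a library, and Spi1, the gene of PU.1, had 2 to 27.

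Sinusoidal endothelial genes rose in 8 of the 9 tested, with a list median of 1.51. Over all genes tested, 17.6% rose and 18.9% fell, and the counts below stand beside those shares. Pecam1, an adhesion molecule gene of endothelium, rose by 1.92 ± 0.139, Cdh5, the gene of endothelial cadherin, by 1.86 ± 0.145 and Clec4g, a lectin gene of liver sinusoids, by 2.35 ± 0.499. The summed level of the 10 listed genes was 58.6 to 61.8 CPM in male cells and 20.8 to 24 CPM in female cells with the same serum, with no listed gene at 0 in any library. Hepatocyte genes rose in 10 of 12 and fell in 1, with a summed level of 42800 to 44200 against 22000 to 24300 CPM. Stellate cell and fibroblast genes rose in 4 of 11 and fell in 1. The fall, of Col1a1, was lost in 6 of 10 alternatives, among them leaving out female replicate 1 (0.125) or 3 (0.0553) or male replicate 1 (0.102) or 2 (0.122), and the rise of Pdgfrb was lost without female replicate 2 (0.0836) or male replicate 2 (0.0681). Cholangiocyte genes rose in 2 of 7 and fell in 1, and the erythroid gene Alas2 rose by 3.99 ± 0.22. The part of these lists in the Cd68 result was not tested. The summed level of the 9 scarce macrophage markers overlapped between the same groups, at 6.15 to 7.61 CPM in male and 6.45 to 8.68 CPM in female cells. That sum leaves out Cd68, the 1 marker called here, so its overlap is not a separate result. Clec4f was its largest part.

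**Figure D4:**
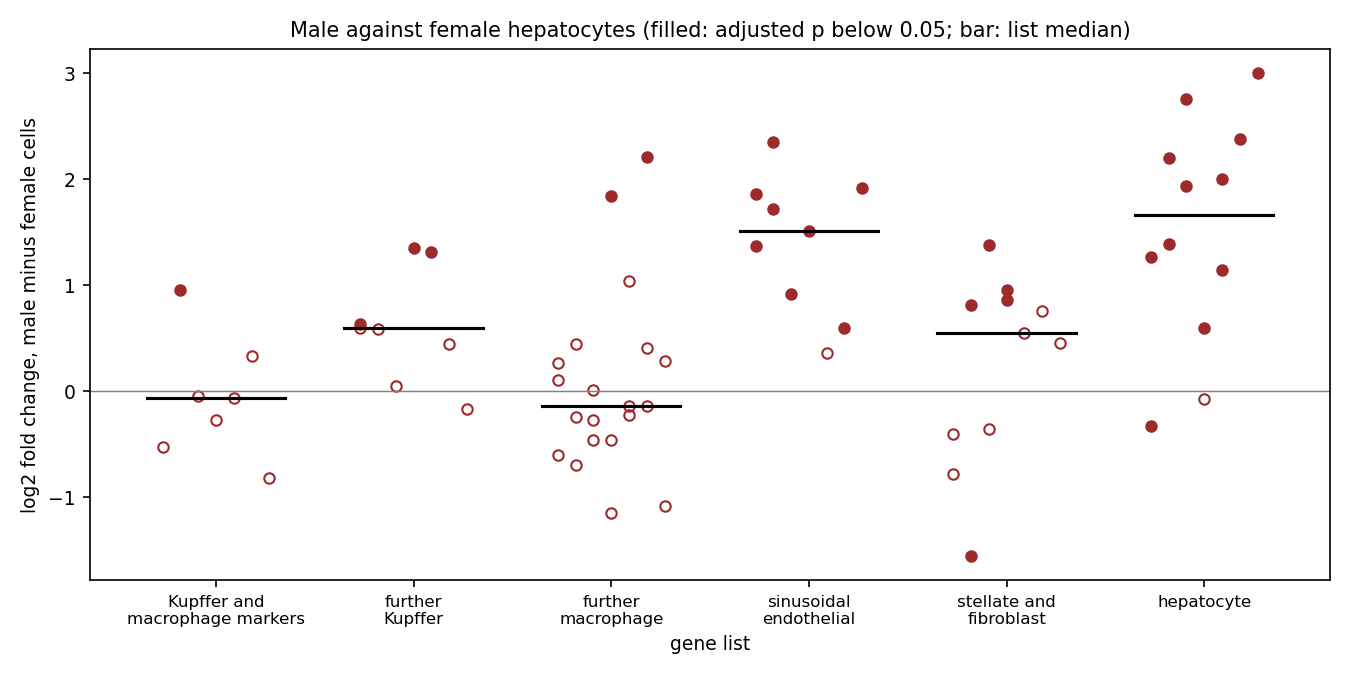
Log2 fold change of male minus female cells (y axis) for each tested gene of 6 lists (x axis), filled where the adjusted p was below 0.05, with a bar at the list median. The medians are -0.06 for the Kupffer and macrophage markers, 0.60 for the further Kupffer genes, -0.14 for the further macrophage genes and 1.51 for the sinusoidal endothelial genes.

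Of 11 genes tested of signals that act on macrophages, 4 rose and 2 fell in male cells, where 17.6% of all genes rose and 18.9% fell. Csf2ra, a receptor chain gene for the growth factor GM-CSF, rose by 2.36 ± 0.297 in male cells. Il34, the gene of the second ligand of the Csf1r product, fell by 0.92 and Csf2, the gene of GM-CSF, by 1.08. Ccl2, the monocyte attractant gene, had 648, 603 and 673 CPM in male and 365, 351 and 339 CPM in female cells and rose by 0.87 ± 0.0693. Csf1, the gene of the main ligand, had 29.8 ± 0.767 CPM (SD, n = 3) in male and 29.4 ± 1.03 CPM (SD, n = 3) in female cells.

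With serum of conventional males, female cells had less Cd68 than with serum of conventional females, and the other 6 markers did not pass the test. The 3 libraries with male serum lay below the 2 with female serum, and Cd68 fell by 0.38 on the log2 scale (SE 0.107; 95% interval -0.61 to -0.15; adjusted p = 0.037 in edgeR). It was 1 of 7, where 8.56% of all genes passed (3.8% rose and 4.75% fell). This call was lost with an adjusted p of 0.0718 with the replicate number as a block and of 0.117 in a fit of only these groups. It was also lost without male serum replicate 2 (0.0935) or 3 (0.0992) and without female serum replicate 2 (0.0881) or 3 (0.205), at log2 fold changes of -0.45 to -0.31. It stayed past the threshold in 6 of 12 alternatives, and the adjusted p ran from 1.7e-05 to 0.205. Without both libraries rich in Xist it was -0.45 (0.0426).

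The log2 fold changes of the other markers with male serum were 0.51 for Vsig4 (95% interval -0.21 to 1.23), 0.44 for Lyz2 (-0.14 to 1.01), 0.24 for Ptprc (-0.63 to 1.11), 0.19 for Csf1r (-0.46 to 0.84), 0.02 for Clec4f (-0.36 to 0.41) and -0.14 for Adgre1 (-0.97 to 0.68). Cd68 lay below and Vsig4 above without overlap, which is 2 of 7 against 34.9% of all genes. The median of the 7 was 0.19, against 0.00 for all genes. The interval of Clec4f leaves room for a change of no more than 0.41 in either direction.

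Of the further Kupffer genes, 3 of 8 fell with male serum and 1 rose, where 4.75% of all genes fell and 3.8% rose. Id3 fell by 1.02 and Slc40a1 by 0.47, while Hmox1, the heme oxygenase gene, rose by 0.45 ± 0.0837. Il18bp fell by 0.39 with an adjusted p of 0.0275 in edgeR, a call that was lost under 6 of 12 alternatives, among them leaving out replicate 1 or 3 of male serum or replicate 2 or 3 of female serum. Mpeg1 was the 1 macrophage gene of 20 that passed, with a fall of 1.08 to 7.26, 5.92 and 8.05 CPM from 17.1 and 12.7 CPM. No sinusoidal endothelial gene of 9 passed (1 at an unadjusted p under 0.05), and the summed level of that list was 20.8 to 24 CPM with male and 20.6 to 23.3 CPM with female serum. Of the hepatocyte genes, 5 of 12 fell. Of those 5, 3 stayed called without female serum replicate 2 and without both libraries rich in Xist, and 2 in a fit of only these groups. Their part in the Cd68 value was not tested. Csf2 rose by 1.63 ± 0.313, from 0.496 and 0.447 CPM to 1.58, 1.56 and 1.26 CPM.

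Germ-free and conventional female serum gave no difference in the markers that passed the test: 0 of 7 were called by edgeR, where 6.37% of all genes were (2.8% rose and 3.57% fell). One, Cd68, had an unadjusted p below 0.05, and DESeq2 called 0. Cd68 had 129 and 119 CPM with germ-free against 98.4 and 107 CPM with conventional serum, a log2 fold change of 0.27 ± 0.117 (SE; 95% interval 0.02 to 0.52; adjusted p = 0.204 in edgeR). Without the low-count filter it was called at 0.26 (0.049), and over all 11 alternatives the adjusted p ran from 0.049 to 0.636. The libraries did not overlap for Cd68 and for Vsig4, at -0.55 (-1.40 to 0.29), but 49.9% of all genes behaved so in this comparison of 2 against 2.

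The other values ran from -0.10 to 0.26, with wide intervals that all held 0. Clec4f had -0.10 (-0.52 to 0.33), Lyz2 0.15 (-0.49 to 0.78), Csf1r 0.26 (-0.44 to 0.97), Adgre1 -0.04 (-0.94 to 0.86) and Ptprc 0.04 (-0.93 to 1.01). The median of the 7 was 0.04, beside 0.00 for all genes. For Clec4f, a change beyond 0.52 on the log2 scale lies outside the interval, while the intervals of Adgre1 and Ptprc reach to 0.86 and 1.01.

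In the further lists, Nr1h3, the gene of the liver X receptor alpha that Kupffer cells need for their identity and that hepatocytes also express, fell by 0.45 with germ-free serum (adjusted p = 0.0282 in edgeR). It was the 1 of 8 further Kupffer genes that passed, and the call was lost under 5 of 11 alternatives, among them leaving out conventional replicate 2 (0.214) or germ-free replicate 2 (0.223) or 3 (0.0516). In edgeR 6 of these 8 had an unadjusted p under 0.05, and 3 were above 0 and 5 below, with a median of -0.29. Mpeg1, the 1 of 20 macrophage genes, fell by 0.60 with an adjusted p of 0.0467 in edgeR, lost without conventional replicate 2 (0.412) or germ-free replicate 2 (0.201) or 3 (0.207). Of those 20, 5 had an unadjusted p under 0.05 in edgeR, and 11 were above 0 and 9 below, with a median of 0.11. Csf2 was the 1 of 11 signal genes that passed and rose by 1.66 ± 0.335, a call lost without conventional replicate 2 (0.0508) or germ-free replicate 3 (0.0715). No sinusoidal endothelial gene of 9 passed in edgeR (1 at an unadjusted p under 0.05), with a summed level of 22.2 to 23.6 against 20.6 to 23.3 CPM. The stellate cell and fibroblast list, at 36.3 to 39.7 against 27 to 34 CPM, had 0 of 11 past the threshold in edgeR (1 at an unadjusted p under 0.05). Of the hepatocyte genes 7 of 12 fell, with summed levels of 21300 to 21500 against 24900 to 28400 CPM. Of all genes tested, 3.57% fell and 2.8% rose. Of those 7, 3 stayed called when conventional replicate 2 or germ-free replicate 2 was left out, and 4 when germ-free replicate 3 or both libraries rich in Xist were. Their part in the Cd68 value was not tested.

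Growth hormone in germ-free serum left all 7 tested markers short of the threshold in edgeR, in a comparison where 0.523% of all genes passed (0.46% rose and 0.0632% fell). At an unadjusted p under 0.05 there were 3, Cd68, Clec4f and Ptprc, and DESeq2 called 1. The libraries did not overlap for 4 of 7 (Ptprc above, and Cd68, Clec4f and Csf1r below), against 32% of all genes. The median of the 7 was -0.23, against 0.00 for all genes.

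Ptprc had the widest shift, from 10 and 17 counts with vehicle to 33, 41 and 48 with growth hormone, a log2 fold change of 1.32 ± 0.398 (SE; 95% interval 0.49 to 2.15; adjusted p = 0.18 in edgeR). All 3 libraries with growth hormone lay above both with vehicle. No alternative called it, with adjusted p-values of 0.141 to 0.549.

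Clec4f had 1.57, 2.19 and 1.61 CPM with growth hormone against 2.64 and 3.37 CPM, a log2 fold change of -0.75 (SE 0.192; 95% interval -1.15 to -0.35; adjusted p = 0.102 in edgeR). DESeq2 called it with an adjusted p of 0.0307, as did edgeR without the low-count filter (0.0365) and without growth hormone replicate 2 (-0.92, 0.0315); over all alternatives the adjusted p ran from 0.0307 to 0.574. Cd68 had -0.37 (-0.60 to -0.14; adjusted p = 0.172 in edgeR), and was called without the low-count filter (-0.36, 0.000508) among alternatives with an adjusted p of up to 0.569. Without both libraries rich in Xist, Cd68 had -0.29 (0.452), Clec4f -0.67 (0.321) and Ptprc 1.46 (0.267). The other 4 markers had Csf1r -0.23 (-0.87 to 0.41), Lyz2 -0.24 (-0.82 to 0.34), Adgre1 -0.02 (-0.85 to 0.81) and Vsig4 0.04 (-0.76 to 0.84).

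One macrophage gene outside the 10 markers passed with growth hormone, 1 of 20, where 0.523% of all genes passed. Of these 20 genes 6 had a log2 fold change above 0 and 14 below, with a median of -0.23. In edgeR 6 of the 20 had an unadjusted p under 0.05. Cybb, which codes for the catalytic subunit of the phagocyte NADPH oxidase, had 68, 48 and 80 counts (1.44, 1.14 and 1.63 CPM) against 10 and 6 counts (0.24 and 0.167 CPM). It rose by 2.75 ± 0.4 (adjusted p = 8.26e-04 in edgeR), was above in 3 of 3 libraries and was called in all 11 alternatives that gave a value. In the other 3 groups Cybb had 0.247 to 0.429 CPM on average. The further Kupffer genes gave 0 of 8 in edgeR (5 at an unadjusted p under 0.05), with 7 above 0, 1 below and a median of 0.23. Clec1b of that list had 0.55, 0.523 and 0.448 CPM with growth hormone against 0.937 and 1.11 CPM with vehicle. The sinusoidal endothelial genes gave 0 of 9 (1 at an unadjusted p under 0.05). Their summed level was 17.5 to 22.2 CPM with growth hormone and 22.2 to 23.6 CPM with vehicle. Of these 9 endothelial genes 8 had a log2 fold change below 0, with a median of -0.27. Stellate cell and fibroblast genes gave 0 of 11 in edgeR (2 at an unadjusted p under 0.05), with 10 below 0, a median of -0.41 and a summed level of 22.4 to 32 against 36.3 to 39.7 CPM. Hepatocyte genes gave 0 of 12 (5 at an unadjusted p under 0.05), with 12 above 0, a median of 0.19 and a summed level of 22800 to 27800 against 21300 to 21500 CPM. The part of these lists in the values of Cd68, Clec4f and Csf1r was not tested.

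Signals to macrophages rose in 3 of 11 with growth hormone and fell in 0, where 0.46% of all genes rose and 0.0632% fell. Csf1, the gene of the growth factor on which Kupffer cells depend, had 74.5, 65.2 and 60.4 CPM against 32.6 and 28.5 CPM and rose by 1.13 ± 0.0905 (adjusted p = 3.04e-07 in edgeR). Ccl2 had 786, 688 and 783 CPM against 386 and 431 CPM and rose by 0.88 ± 0.0789 (adjusted p = 1.01e-06 in edgeR). Both stayed past the threshold in all 12 alternatives. Csf2 had 3.41, 5.44 and 4.07 CPM against 1.3 and 1.7 CPM and rose by 1.52 ± 0.261, a call lost without germ-free replicate 2 (0.193). Csf1r, the gene of the receptor for the Csf1 product, lay below in all 3 libraries with growth hormone (0.698 to 0.835 CPM against 0.865 to 0.948 CPM) but did not pass. Without both libraries rich in Xist, the rises were 2.74 for Cybb, 1.04 for Csf1, 0.84 for Ccl2 and 1.67 for Csf2, all past the threshold.

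**Figure D5:**
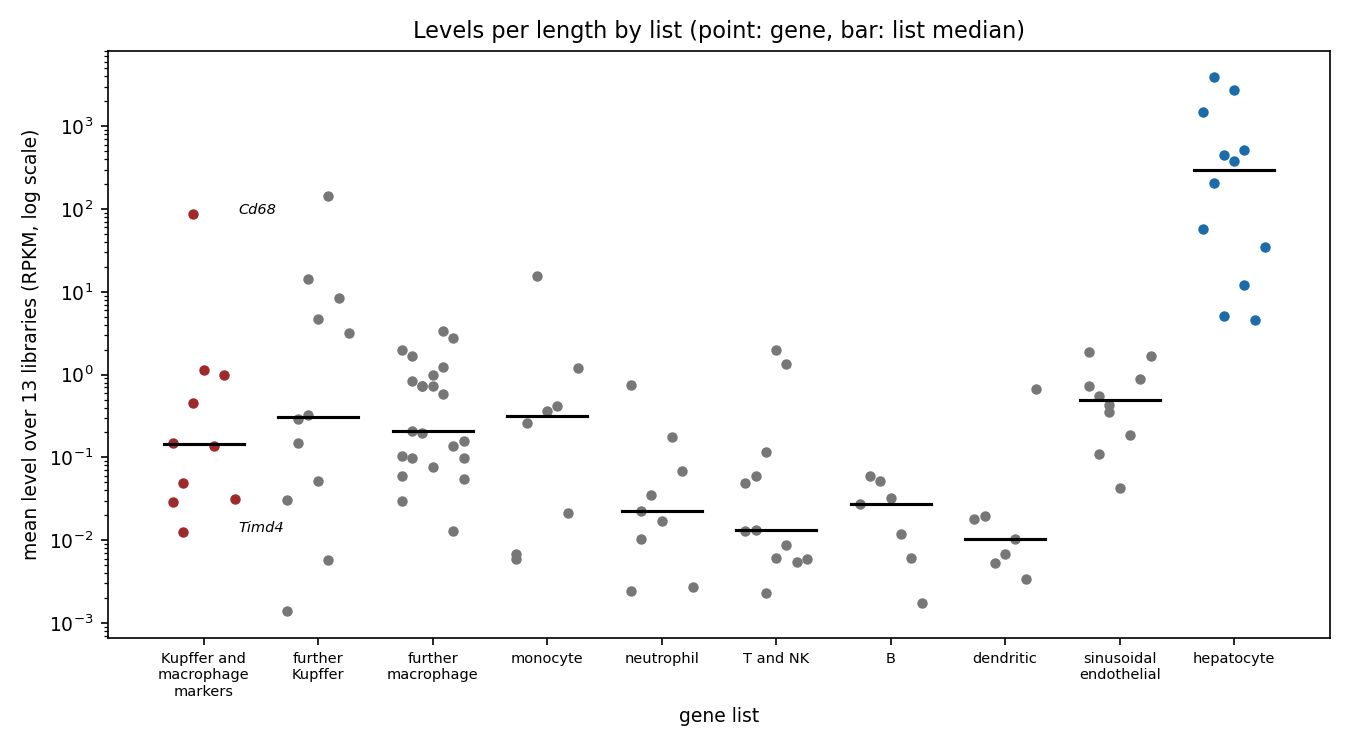
Mean level over the 13 libraries (y axis, RPKM on a log scale) of each gene of 10 lists (x axis), one point per gene with a mean above 0 and a bar at the list median. The Kupffer and macrophage markers have a median of 0.144 RPKM with Cd68 at 88.1 and Timd4 at 0.0126, and the hepatocyte genes have a median of 292 RPKM.

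The lists of the other cell types looked for also had low medians, though some of their genes were higher. The 10 markers had a median of 0.144 RPKM, the further macrophage genes 0.209, the further Kupffer genes 0.308 and the sinusoidal endothelial genes 0.488. Cholangiocyte genes had a median of 0.576 RPKM, monocyte genes 0.316, stellate cell and fibroblast genes 0.2 and erythroid genes 0.061. The B cell list had a median of 0.0276 RPKM, neutrophils 0.0225, T and NK cells 0.0131 and dendritic cells 0.0104. All these lists stood below the hepatocyte median of 292 RPKM. Hmox1, at 142 RPKM, was the gene of the further Kupffer list with the highest level, and Mpeg1, at 3.35 RPKM, that of the macrophage list. In the monocyte list it was Cx3cr1, at 15.4 RPKM, and in the cholangiocyte list Spp1, at 10.5 RPKM.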

How the data were processed

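Total RNA (250 ng, ribosomal RNA depleted, stranded libraries, 12 PCR cycles) was sequenced, per the labels' protocols. The deposited values are raw exon read counts per gene. STAR 2.4.0i and build mm10 are named in the submitters' processing notes; for the counter, its annotation, strand setting and filters, nothing is stated in the sources used. Of 15 table columns, 2 share one name and were not used, which left 13 libraries.

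In edgeR 4.0.16, TMM scaling and filterByExpr with a minimum count of 10 left 17405 genes and 7 of the 10 markers. One model of 5 groups was fitted (8 residual degrees of freedom, biological coefficient of variation 9%). The robust quasi-likelihood F test was two-sided with Benjamini-Hochberg adjustment over all genes tested, and called means an adjusted p under 0.05. The standard error is the fold change over the square root of F. The script was tested on simulated data. RPKM used union exon lengths of GENCODE release M21, which matches mm10. Correlations used a prior count of 2. Alternatives were DESeq2 1.42.0, scaling by library size, other filters, a replicate block, fits of the groups compared and libraries left out. Libraries of one group differed (chi-square per degree of freedom 5.461 to 53.363, genes of 20 or more counts), so none was a copy.

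The markers and the 13 further lists were chosen with earlier results of these data known. Of 147 list entries, 140 were found by symbol, 6 through their identifier and 1 was not found. All 10 markers are described; other lists are given by counts, with up to 3 called genes of the largest fold change and a mean count of at least 10, the gene with the highest level and those near 0. Genes named beyond this were picked after their values were seen.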

Additional observations from a re-analysis of the deposited data

How the results depend on the processing

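Over the 28 fold changes of the 7 tested markers, 284 of 322 alternative values kept direction and side of the threshold, 6 lost a call, 8 gained one and 24 changed sign; those that changed sign had passed no test. The rise of Cd68 in male cells was called in all 12 alternatives (0.88 to 1.09). The number of markers called was 2 for male against female cells with library size only and with a minimum count of 30 (1 to 2 leaving out a replicate), 1 for germ-free serum with no low-count filter, 2 for growth hormone with no filter and 1 with DESeq2 (0 to 1 leaving out a replicate), and 0 for male against female serum in a fit of only these groups (0 to 1 leaving out a replicate). Libraries of the same replicate number shared little deviation from their group means (correlations -0.02 to 0.13), which does not settle whether they were handled in matched sets. With the replicate block the number called for male against female serum was 0, and Adgre1 with growth hormone was 0.08. Without both libraries rich in Xist, Csf1r was -0.06 between male and female serum, and Adgre1 0.03 and Vsig4 -0.03 with growth hormone. Leaving out a replicate, the log2 fold changes that changed sign ran as follows. With germ-free serum, Adgre1 ran from -0.35 to 0.23, Clec4f from -0.28 to 0.07, Lyz2 from -0.01 to 0.29 and Ptprc from -0.51 to 0.46. Between male and female serum, Adgre1 ran from -0.38 to 0.13, Clec4f from -0.04 to 0.07, Csf1r from -0.06 to 0.47 and Ptprc from -0.01 to 0.43. Between male and female cells, Clec4f ran from -0.10 to 0.03 and Lyz2 from -0.24 to 0.20. With growth hormone, Adgre1 ran from -0.29 to 0.28 and Vsig4 from -0.20 to 0.31. Genes called over the whole table differed by more than 1.5 times from 1109 with germ-free serum (1706 with no filter, 347 without both libraries rich in Xist, 682 in a fit of only these groups, 269 to 1267 leaving out a replicate), from 1489 between male and female serum (527 when only these groups were fitted, 879 without both libraries rich in Xist, 712 to 1682 leaving out a replicate) and from 91 with growth hormone (619 with no filter, 274 with DESeq2, 179 in a fit of only these groups, 33 to 185 leaving out a replicate). The cause of these changes was not tested. Depth limits the scarce markers: Marco, Cd5l and Timd4 could not be tested.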

Other observations

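T cell receptor constant segments changed with the sera, while 9 of the 12 listed T and NK cell genes had a median count below 10. Trbc1 had 0.352 ± 0.0564 CPM (SD, n = 2) with conventional female serum and 2.59 ± 0.459 CPM (SD, n = 3) with conventional male serum on female cells, a rise of 2.86 ± 0.338 on the log2 scale (SE), and Trbc2 rose by 2.75 ± 0.388. Cd3d had 0 to 3 counts in a library and Cd3g 0 to 2, while Cd3e had 9 to 42. With germ-free serum Trbc1 rose by 1.39 ± 0.385 and Trbc2 by 1.52 ± 0.436, calls that were lost under 6 and 7 of 11 alternatives.

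Among monocyte genes, Cx3cr1, which codes for the fractalkine receptor, had 62.6 to 79.8 CPM in every library, while Ccr2, the receptor gene for the Ccl2 product, had 0 to 6 counts. F13a1, a coagulation factor subunit gene of monocytes and macrophages, had 5.41 ± 1.63 CPM (SD, n = 3) in female and 0.46 ± 0.105 CPM (SD, n = 3) in male cells with conventional male serum, and fell by 3.54 in male cells. The neutrophil gene Ly6g had 0 counts in 9 libraries and at most 4, and the dendritic cell gene Xcr1 0 in 7 and at most 2.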
